A study of Mus musculus with 6 samples.

Results

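The genes described here are 10 genes known for their enrichment in pancreatic α cells, taken by name and leaving out glucagon itself: Ttr, Gc, Irx1, Irx2, Pou3f4, Fev, Slc38a5, Smarca1, Sh3gl2 and Tmem236. All 10 were found among the 54532 genes of the deposited table. They were measured by RNA sequencing of whole mouse islets in 3 libraries labelled Wtap-βKO and 3 labelled Wtap flox/flox. Each library pooled the islets of 3 mice at 7 weeks of age, and the labels call the libraries of a group independent biological replicates. The label Wtap-βKO names a β-cell knockout of Wtap, and Wtap flox/flox names the floxed allele without it. The labels give neither the promoter that drives the recombinase nor the part of the gene that is deleted. Whether the flox/flox mice carried the recombinase is not given either.

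Glucagon-secreting α cells raise blood glucose between meals and make up a minority of the mouse islet beside the insulin-secreting β cells. IRX1, IRX2 and POU3F4 are known as transcription factors of α cells. WTAP helps the m6A methyltransferase, which modifies adenosines in messenger RNA, to assemble in the nucleus.

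Values are FPKM, fragment counts scaled to gene length and library size, which allow levels of different genes to be set side by side. Differences are limma log2 fold changes of FPKM plus a pseudocount of 1, libraries labelled Wtap-βKO minus Wtap flox/flox, which understates the change of low genes. A gene was called at a Benjamini-Hochberg adjusted p under 0.05 across the 15927 genes with a mean of at least 0.5 FPKM. The libraries held 16353297 to 18682745 reads assigned to genes, as recovered from FPKM and gene length. Wtap itself was not lower under its knockout label. It had 11.8 ± 0.552 FPKM in the libraries labelled Wtap-βKO and 11.2 ± 0.545 FPKM in Wtap flox/flox (SD, n = 3 each), with a log2 difference of 0.07 (SE 0.06, adjusted p = 0.475). Every direction below is therefore one between libraries as labelled, and a deleted stretch of the gene cannot be seen in a value for the whole gene.

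Of the 10 genes, 9 passed the filter on low values and Tmem236 did not. Ttr, Gc, Irx2 and Smarca1 rose in the libraries labelled Wtap-βKO, none was called lower, and 5 were not called. Across all genes tested, 8.77% were called higher and 11.3% lower (1397 and 1798 genes). The split over all genes depended on the scaling, with 2336 higher and 1093 lower after scaling to total recovered reads, and 1677 higher and 1440 lower without the 50 highest genes. In 6 of the 9 tested genes all libraries labelled Wtap-βKO lay above all Wtap flox/flox libraries, a pattern seen in 19.1% of all genes tested. In 1, Sh3gl2, they all lay below, as in 22.1% of all genes tested, and in Irx1 and Slc38a5 the groups overlapped. The median log2 difference was 0.48 over the 9 genes, beside -0.01 over all genes tested. In bulk islets, a change in the share of α cells and a change in the RNA of each α cell cannot be told apart.

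**Figure D1:**
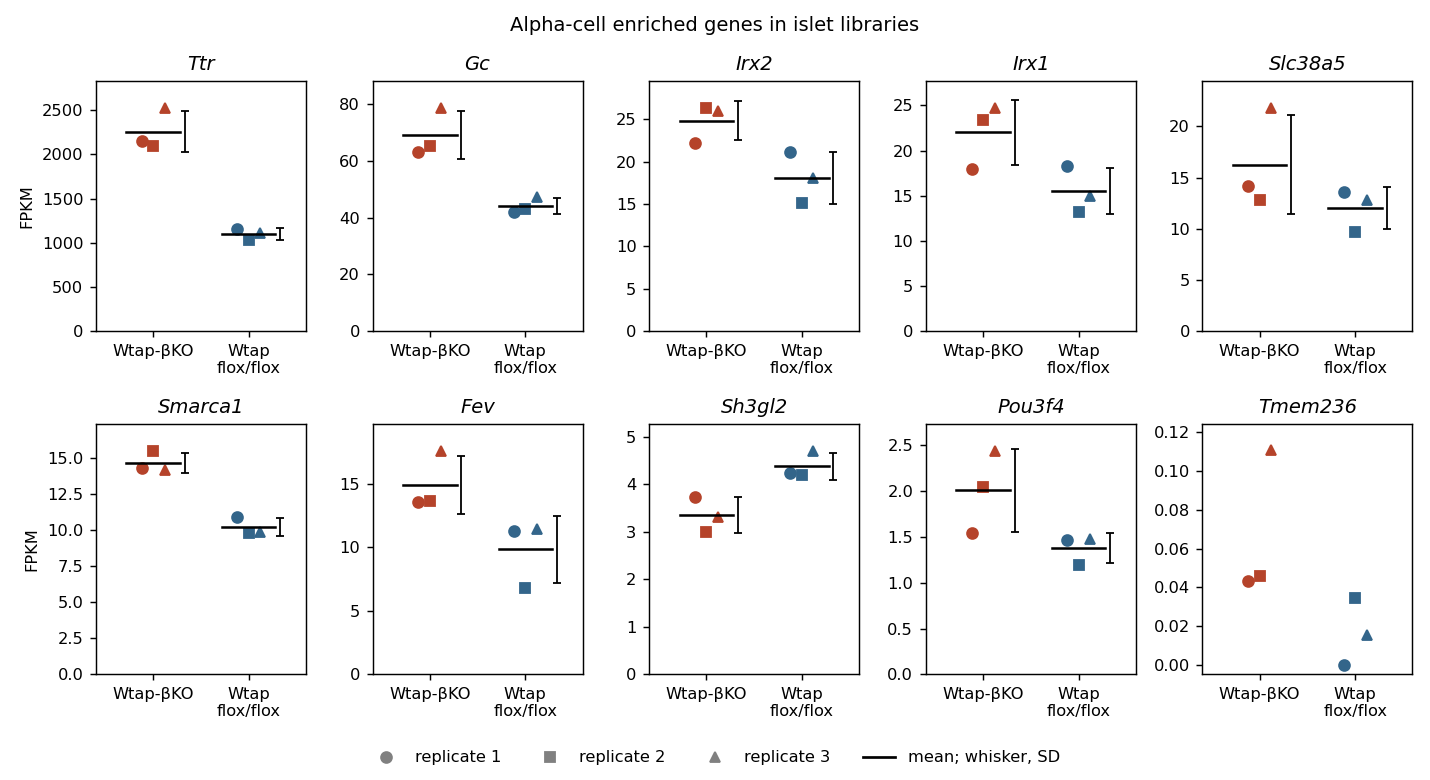
FPKM of each of the 10 genes in each library, with the 3 libraries labelled Wtap-βKO left of the 3 Wtap flox/flox libraries and a separate linear axis per gene. Bars are means and whiskers SD for the 9 tested genes, and Tmem236 is shown as points alone; Ttr spans 1028 to 2525 FPKM, whereas Tmem236 stays at or below 0.111 FPKM.

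Levels spread widely among the 10 genes. Ttr was the most abundant in both groups, followed by Gc, Irx2, Irx1 and Slc38a5, with Sh3gl2, Pou3f4 and Tmem236 at the bottom. Smarca1 and Fev changed places between the groups, their libraries overlapping in both. Irx2 and Irx1 also overlapped within each group, as did Irx1 and Slc38a5, so the order of these neighbours is not resolved by 3 libraries.

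The transcripts of both carrier proteins rose, with the largest log2 differences of the 9 tested genes. Ttr encodes transthyretin, which carries thyroxine and, bound to RBP4, retinol. It lies on chromosome 18 (GRCm38, 20665250 to 20674324, plus strand). Ttr had 2150.0, 2096 and 2525 FPKM in the libraries labelled Wtap-βKO, against 1151, 1028 and 1114 FPKM in Wtap flox/flox. The lowest library labelled Wtap-βKO stood well above the highest Wtap flox/flox library. Ttr averaged 2257 ± 234 FPKM in the libraries labelled Wtap-βKO and 1098 ± 63.5 FPKM in Wtap flox/flox (SD, n = 3 each), a 2.06-fold rise with a log2 difference of 1.04 (SE 0.11, adjusted p = 0.00154). An antisense gene, Gm16090, overlaps Ttr by 11 bases, and the library preparation described in the labels has no strand-marking step. Gm16090 itself stood at 3.42 ± 1.27 FPKM in the libraries labelled Wtap-βKO and 1.87 ± 0.192 FPKM in Wtap flox/flox.

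Ttr and Gc are abundant in hepatocytes too. The 9 other hepatocyte markers summed to between 9.46 and 17.1 FPKM in the libraries labelled Wtap-βKO and between 3.34 and 6.44 FPKM in Wtap flox/flox. Of the 3 that were tested, Apoa1 and Apoa2, apolipoproteins of high-density lipoprotein, were called higher, Apoa1 in 9 of 18 alternatives. Albumin (Alb) was low, at 1.47, 0.906 and 4.48 FPKM in the libraries labelled Wtap-βKO, against 0.560, 0.487 and 1.32 FPKM in Wtap flox/flox, and was not called (adjusted p = 0.219). The part of these markers in the rise of Ttr and Gc was not tested.

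Gc encodes the vitamin D-binding protein of plasma and lies on chromosome 5 (GRCm38, 89417522 to 89457898, minus strand). It had 63.2, 65.3 and 78.7 FPKM in the libraries labelled Wtap-βKO, against 42.1, 43.0 and 47.4 FPKM in Wtap flox/flox. The groups did not overlap, and replicate 3 of Wtap-βKO was the highest. Gc averaged 69.1 ± 8.42 FPKM in the libraries labelled Wtap-βKO and 44.2 ± 2.85 FPKM in Wtap flox/flox (SD, n = 3 each), 1.56-fold higher with a log2 difference of 0.63 (SE 0.09, adjusted p = 0.0059). Its RefSeq promoter window (chr5:89457849-89458148, GRCm38.p6, minus strand, 250 bases before to 50 after the start) is shown because Gc rose while, unlike the Irx2 and Smarca1 windows given further on, it holds no CpG at all and 40.3% G and C.
Gc: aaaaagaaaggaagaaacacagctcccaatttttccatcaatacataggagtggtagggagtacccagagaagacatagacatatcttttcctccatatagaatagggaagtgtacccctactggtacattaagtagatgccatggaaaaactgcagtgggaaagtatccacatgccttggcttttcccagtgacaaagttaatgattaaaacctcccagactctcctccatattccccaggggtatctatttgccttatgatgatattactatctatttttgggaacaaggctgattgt
Across all 32851 RefSeq promoter windows of this length the median was 52.7% G and C and 7 CpG.

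Partners of these carriers moved in both directions. Of 12 genes listed for retinol, thyroxine and vitamin D transport, 7 were tested, 3 were called higher and 1 lower. Serpina7, which encodes thyroxine-binding globulin, had 69.0, 34.7 and 66.0 FPKM in the libraries labelled Wtap-βKO, against 3.26, 3.16 and 4.66 FPKM in Wtap flox/flox, 15.3-fold higher with a log2 difference of 3.57 (adjusted p = 0.000515). It was the widest separation among them. Rbp4, the plasma retinol carrier that binds transthyretin, rose to 183 ± 8.47 FPKM in the libraries labelled Wtap-βKO, against 135 ± 5.33 FPKM in Wtap flox/flox (SD, n = 3 each; log2 difference 0.43, adjusted p = 0.00488). Rbp4 is also counted among the δ-cell markers further on. Cyp27b1, which makes the active form of vitamin D, averaged 2.16 ± 0.388 FPKM in the libraries labelled Wtap-βKO and 1.28 ± 0.190 FPKM in Wtap flox/flox (adjusted p = 0.0395), a call held in 9 of 18 alternatives. Vdr, the vitamin D receptor, fell to 14.7 ± 3.502 FPKM in the libraries labelled Wtap-βKO, against 36.9 ± 2.24 FPKM in Wtap flox/flox (log2 difference -1.30, adjusted p = 0.00304).

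**Figure D2:**
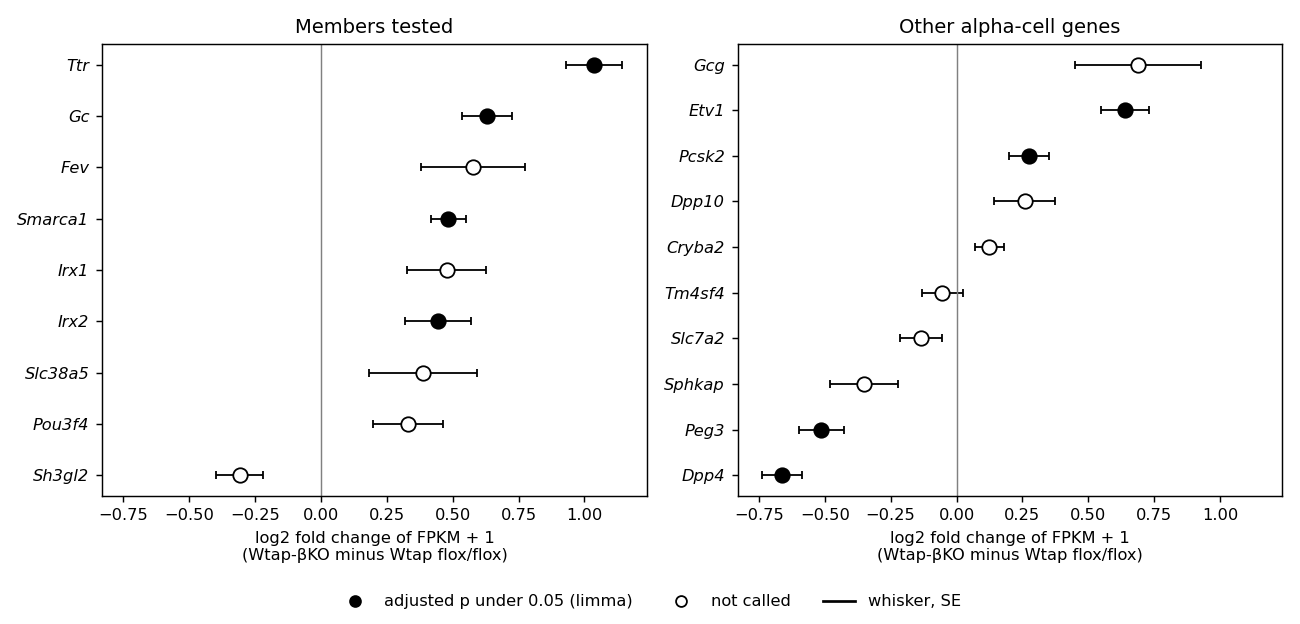
log2 fold changes (libraries labelled Wtap-βKO minus Wtap flox/flox, on log2(FPKM + 1)) of the 9 tested genes and of other α-cell genes, with whiskers of 1 SE from the limma fit and filled points for called genes. Ttr has the largest difference among the 9, at 1.04, and Sh3gl2 is the one below 0, at -0.31.

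Irx1 and Irx2 encode Iroquois homeodomain transcription factors and lie on chromosome 13 of GRCm38, Irx1 from 71957921 to 71963723 on the minus strand and Irx2 from 72628820 to 72634198 on the plus strand. Irx2 had 22.2, 26.3 and 26.0 FPKM in the libraries labelled Wtap-βKO, against 21.2, 15.1 and 18.1 FPKM in Wtap flox/flox. The groups did not overlap, but the lowest library labelled Wtap-βKO and the highest Wtap flox/flox library were close. Irx2 averaged 24.8 ± 2.30 FPKM in the libraries labelled Wtap-βKO and 18.1 ± 3.05 FPKM in Wtap flox/flox (SD, n = 3 each), 1.37-fold higher with a log2 difference of 0.45 (SE 0.13, adjusted p = 0.0485). The call was lost in 8 of 19 alternatives, among them those without Wtap-βKO replicate 1, 2 or 3 (adjusted p = 0.0567, 0.106 and 0.129) and without Wtap flox/flox replicate 2 or 3 (0.108 and 0.116), and with no filter on low values (0.103).

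Irx1 had 17.9, 23.3 and 24.7 FPKM in the libraries labelled Wtap-βKO, against 18.3, 13.2 and 15.0 FPKM in Wtap flox/flox. The lowest library labelled Wtap-βKO fell just below the highest Wtap flox/flox library, so the groups overlapped. The log2 difference was 0.48 (SE 0.15, adjusted p = 0.0651) and passed the threshold in 7 of 19 alternatives. Of the other 4 Iroquois genes, Irx4 and Irx6 were listed at 0 in every library, and Irx3 was the one tested, at 0.866 ± 0.205 FPKM in the libraries labelled Wtap-βKO and 0.375 ± 0.0547 FPKM in Wtap flox/flox (SD, n = 3 each; adjusted p = 0.0642). The Irx2 promoter window (chr13:72628570-72628869, GRCm38.p6, plus strand) is shown as the CpG-rich counterpart of Gc among the called genes, with 25 CpG and 69% G and C.
Irx2: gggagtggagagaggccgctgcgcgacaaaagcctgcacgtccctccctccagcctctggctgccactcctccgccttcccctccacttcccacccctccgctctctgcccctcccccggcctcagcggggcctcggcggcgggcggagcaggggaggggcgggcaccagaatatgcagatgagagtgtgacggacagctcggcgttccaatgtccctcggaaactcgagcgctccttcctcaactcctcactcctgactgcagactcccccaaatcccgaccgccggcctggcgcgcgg
It held none of the 3 motifs searched, which are described with the Smarca1 window.

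Pou3f4 (BRN4) encodes a POU-domain transcription factor known to bind the glucagon promoter, and lies on the X chromosome (GRCm38, 110814280 to 110817207, plus strand). It was scarce, with 1.54, 2.04 and 2.44 FPKM in the libraries labelled Wtap-βKO, against 1.46, 1.19 and 1.48 FPKM in Wtap flox/flox. The groups were apart by a narrow gap, and the log2 difference of 0.33 (SE 0.13) was not called (adjusted p = 0.129), nor was it in any of 18 alternatives. None of the other POU class 3 genes was tested, and Pou3f2 and Pou3f3 were listed at 0 throughout.

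Fev encodes an ETS-family transcription factor known from serotonergic neurons and islet endocrine progenitors, and lies on chromosome 1 (GRCm38, 74881509 to 74885419, minus strand). It had 13.5, 13.6 and 17.6 FPKM in the libraries labelled Wtap-βKO, against 11.3, 6.77 and 11.4 FPKM in Wtap flox/flox. All libraries labelled Wtap-βKO were higher, with replicate 2 of Wtap flox/flox far below its group. The log2 difference was 0.58 (SE 0.20, adjusted p = 0.0835), past the threshold in 4 of 19 alternatives, and 0.35 without that library. Of 15 serotonin genes 8 were tested, none was called higher and 4 were called lower: Maob, an amine oxidase, Ddc, which makes amines from amino acids, Lmx1b, a homeodomain factor, and Slc18a1, a vesicular amine transporter. The 4 not called had log2 differences above 0. The largest was 0.66 in Slc18a2, another vesicular amine transporter, with no overlap between the groups (adjusted p = 0.0562). Slc18a2 averaged 1.86 ± 0.708 FPKM in the libraries labelled Wtap-βKO and 0.787 ± 0.251 FPKM in Wtap flox/flox. Maob fell to 24.9 ± 2.59 FPKM in the libraries labelled Wtap-βKO, against 76.3 ± 3.76 FPKM in Wtap flox/flox (SD, n = 3 each; log2 difference -1.58, adjusted p = 0.000159).

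The factors listed for endocrine fate went mostly the other way from Ttr, Gc and Irx2. Of 12 listed and 10 tested, 1 was called higher and 5 lower. Neurod1, a basic helix-loop-helix factor, fell to 60.7 ± 2.01 FPKM in the libraries labelled Wtap-βKO, against 93.3 ± 2.91 FPKM in Wtap flox/flox (SD, n = 3 each; adjusted p = 0.000809). Pax6, Myt1 and Foxa2 fell as well, with log2 differences of -0.40, -0.49 and -0.27. St18 was also lower and Rfx6 higher, Rfx6 with a log2 difference of 0.23 (adjusted p = 0.0475), and each held its call in 10 of 19 alternatives. Of the 4 not called, Neurog3 was higher without overlap, with the largest absolute log2 difference of the 10 tested, 0.65. It averaged 5.69 ± 0.910 FPKM in the libraries labelled Wtap-βKO and 3.34 ± 1.16 FPKM in Wtap flox/flox (adjusted p = 0.0765). It passed in 3 of 18 alternatives. Isl1 was also above 0 (0.12), and Nkx2-2 and Insm1 were below (-0.17 and -0.14).

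Slc38a5 encodes a sodium-coupled carrier of glutamine and other neutral amino acids, known from mouse α-cell proliferation when plasma amino acids are high. It lies on the X chromosome (GRCm38, 8271133 to 8280179, plus strand). Slc38a5 had 14.2, 12.9 and 21.8 FPKM in the libraries labelled Wtap-βKO, against 13.6, 9.66 and 12.8 FPKM in Wtap flox/flox. Replicates 1 and 3 of Wtap-βKO lay above every Wtap flox/flox library, and replicate 2 lay among them. The log2 difference was 0.39 (SE 0.20, adjusted p = 0.225). It was 0.17 without replicate 3 of Wtap-βKO and 0.25 without replicate 2 of Wtap flox/flox. Of 10 relatives in the Slc38 family 7 were tested: Slc38a11 was called higher, at 1.56 ± 0.207 FPKM in the libraries labelled Wtap-βKO and 0.749 ± 0.0680 FPKM in Wtap flox/flox (SD, n = 3 each; adjusted p = 0.0158), and Slc38a4 and Slc38a2, other amino acid transporters, were called lower (adjusted p = 0.0089 and 0.0342, the call of Slc38a2 holding in 9 of 19 alternatives).

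Smarca1 (SNF2L) encodes the ATPase of chromatin remodellers of the ISWI family and lies on the X chromosome (GRCm38, 47809368 to 47892974, minus strand). It had 14.3, 15.5 and 14.2 FPKM in the libraries labelled Wtap-βKO, against 10.9, 9.80 and 9.86 FPKM in Wtap flox/flox. The libraries of each group were close together and the groups were well apart. Smarca1 averaged 14.6 ± 0.719 FPKM in the libraries labelled Wtap-βKO and 10.2 ± 0.638 FPKM in Wtap flox/flox (SD, n = 3 each), 1.44-fold higher with a log2 difference of 0.48 (SE 0.07, adjusted p = 0.00436). Its relative Smarca5, the other ISWI ATPase, had 11.2 ± 0.733 FPKM in the libraries labelled Wtap-βKO and 13.4 ± 1.06 FPKM in Wtap flox/flox and was not called (adjusted p = 0.0678). Of 9 other ISWI subunits and relatives tested, Smarca5 among them, Baz2b alone was called, lower (adjusted p = 0.0224, held in 12 of 19 alternatives).

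The Smarca1 promoter window (chrX:47892564-47892863, GRCm38.p6, minus strand) is shown because it is the one window of a called gene that held a motif searched, here in capitals.
Smarca1: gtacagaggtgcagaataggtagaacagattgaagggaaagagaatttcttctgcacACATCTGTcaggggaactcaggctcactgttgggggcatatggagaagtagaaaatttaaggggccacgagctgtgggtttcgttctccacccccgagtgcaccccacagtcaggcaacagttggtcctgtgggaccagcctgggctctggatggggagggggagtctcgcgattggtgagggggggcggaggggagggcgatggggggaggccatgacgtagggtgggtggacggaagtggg
On both strands 3 short motifs were searched: TAATTA, a homeodomain core, TGTTTAC, a forkhead core, and ACANNTGT, an Iroquois site that reads the same on both strands. They occur in 5.29%, 3.65% and 7.38% of the 32851 RefSeq windows. Of the 10 genes 8 had a window in the table. Positions are from the RefSeq start of each window, which can differ from the gene limits printed here. Smarca1 held ACANNTGT at -193. The Smarca1 window lies wholly inside the gene limits printed above, as the Sh3gl2 window does for its gene. Slc38a5 held ACANNTGT at -31, in a window almost wholly inside its gene limits, and Fev held TAATTA at -69. No other of the 8 windows held a match, and these are matches of letters alone.

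Sh3gl2 encodes endophilin A1, which bends membranes in endocytosis and is best known from nerve terminals, and lies on chromosome 4 (GRCm38, 85205126 to 85639195, plus strand). It differed from the other tested genes in direction. Sh3gl2 had 3.74, 2.99 and 3.32 FPKM in the libraries labelled Wtap-βKO, against 4.23, 4.20 and 4.70 FPKM in Wtap flox/flox. All libraries labelled Wtap-βKO were below all Wtap flox/flox libraries. The log2 difference was -0.31 (SE 0.09, adjusted p = 0.0514), not called here and past the threshold in 4 of 18 alternatives. Adamtsl1, which overlaps it on the same strand, had 0.143 ± 0.0569 FPKM in the libraries labelled Wtap-βKO and 0.0942 ± 0.0200 FPKM in Wtap flox/flox. The Sh3gl2 promoter window (chr4:85205206-85205505, GRCm38.p6, plus strand) is shown as that of the gene with the opposite sign, and had the most CpG of the 8, 34, and no match to a motif.
Sh3gl2: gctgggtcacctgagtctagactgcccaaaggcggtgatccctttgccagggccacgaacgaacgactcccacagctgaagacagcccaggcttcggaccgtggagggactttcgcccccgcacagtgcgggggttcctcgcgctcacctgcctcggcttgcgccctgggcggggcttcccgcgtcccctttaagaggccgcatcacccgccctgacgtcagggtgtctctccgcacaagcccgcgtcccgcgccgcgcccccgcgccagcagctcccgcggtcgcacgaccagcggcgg
Of 10 tested endophilin relatives and partners, Dnm2, a dynamin, and Sh3glb1, an endophilin, were called lower (adjusted p = 0.0145 and 0.0357, the call of Sh3glb1 holding in 10 of 19 alternatives) and none higher.

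Tmem236, a gene on chromosome 2 (GRCm38, 14174523 to 14221993, plus strand), was at the edge of detection. Its recovered reads were 3, 3 and 7 in the libraries labelled Wtap-βKO, against 0, 2 and 1 in Wtap flox/flox. The sums, 13 reads in the libraries labelled Wtap-βKO and 3 in Wtap flox/flox, gave a depth-adjusted ratio of 4.10 with an exact 95% interval of 1.13 to 22.4. That interval covers counting error only, and 3 reads, the limit that a count of 0 allows, correspond to 0.0435 to 0.0519 FPKM. A difference cannot be firmly stated at this depth.

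The 3 X-linked genes were Pou3f4, Slc38a5 and Smarca1. Xist was at or below 0.0420 FPKM in every library. The Y-linked genes Ddx3y, Eif2s3y and Uty were called lower, Uty in 12 of 18 alternatives, and the summed level of the sex-linked list was 30.6 to 30.8 FPKM in the libraries labelled Wtap-βKO and 39.6 to 41.4 FPKM in Wtap flox/flox. Whether that difference bears on the X-linked genes was not tested.

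Which library lay at the extreme of its group recurred among the 9 tested genes. Replicate 2 of Wtap flox/flox was the lowest of its group in 8 of the 9 tested genes, Gc being the exception. In Sh3gl2 its margin was narrow, at 4.204 FPKM against 4.234 FPKM in replicate 1 of Wtap flox/flox. Replicate 3 of Wtap-βKO was the highest of its group in 6 of 9, and replicate 1 the lowest in 5 of 9. The shares of all genes tested with these positions are not given, so the counts are not read as a trait of these genes.

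**Figure D3:**
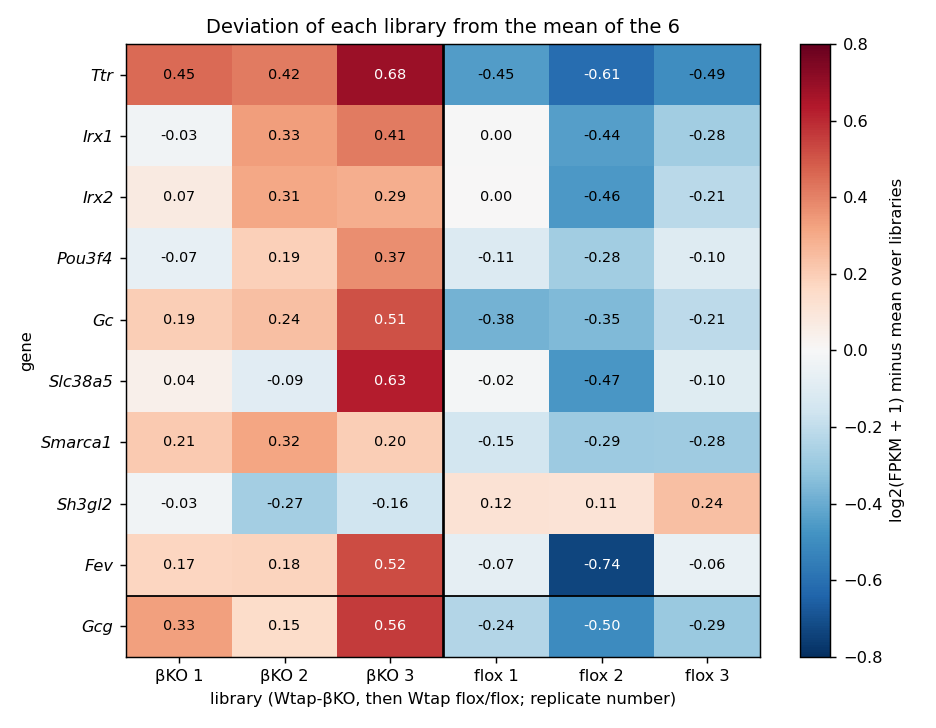
Deviation of each library from the mean of all 6 libraries, in units of log2(FPKM + 1), for the 9 tested genes and, below the line, Gcg, with the libraries labelled Wtap-βKO left of Wtap flox/flox. Red cells are above and blue cells below the mean, and replicate 2 of Wtap flox/flox is the lowest of its group in 8 of the 9 tested genes.

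Glucagon (Gcg), the gene these genes are usually studied beside, had 35736, 31533 and 41946 FPKM in the libraries labelled Wtap-βKO, against 24177, 20117 and 23218 FPKM in Wtap flox/flox. The groups did not overlap, but the log2 difference of 0.69 (SE 0.24) was not called (adjusted p = 0.089) and passed in 9 of 19 alternatives. The limma SE changed with the setting, at 0.13 with no variance trend (adjusted p = 0.0178) and 0.14 with a robust variance trend (0.0152). It was 3.44 with no filter on low values (0.925). Among 10 other α-cell genes, Gcg included, 2 were called higher and 2 lower. Etv1, an ETS factor, rose with a log2 difference of 0.64 (adjusted p = 0.00461). Dpp4, a peptidase, and Peg3, an imprinted zinc-finger gene, fell with log2 differences of -0.66 and -0.51 (adjusted p = 0.00224 and 0.00828). Pcsk2, a prohormone convertase, was called higher (0.27, adjusted p = 0.0465) but at 0.00 under quantile normalization.

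Set against glucagon in the same library, 7 of the 9 genes overlapped between the groups. Ttr had 6.02, 6.65 and 6.02 FPKM per 100 FPKM of Gcg in the libraries labelled Wtap-βKO, against 4.76, 5.11 and 4.799 in Wtap flox/flox. Of the 9 genes, Ttr alone was higher without overlap, with a log2 difference in ratio of 0.35. Sh3gl2 alone of the 9 was lower without overlap, with a log2 difference of -1.08. The overlapping 7 had log2 differences between -0.27 and -0.05. The higher Gcg in the libraries labelled Wtap-βKO (log2 difference 0.69) lowers every such ratio. Among the other α-cell genes this ratio was computed only for those called, so it does not describe that list as a whole. Of the called genes, Peg3, Dpp4 and Pcsk2 were also lower without overlap, at -1.21, -1.40 and -0.41. Etv1 overlapped, at 0.01. The share of all genes without overlap in this ratio was not computed. With 3 libraries a group, a two-sided exact permutation test cannot go below p = 0.1, which is the value for Ttr and Sh3gl2, or 0.45 after adjustment over the 9 ratios.

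**Figure D4:**
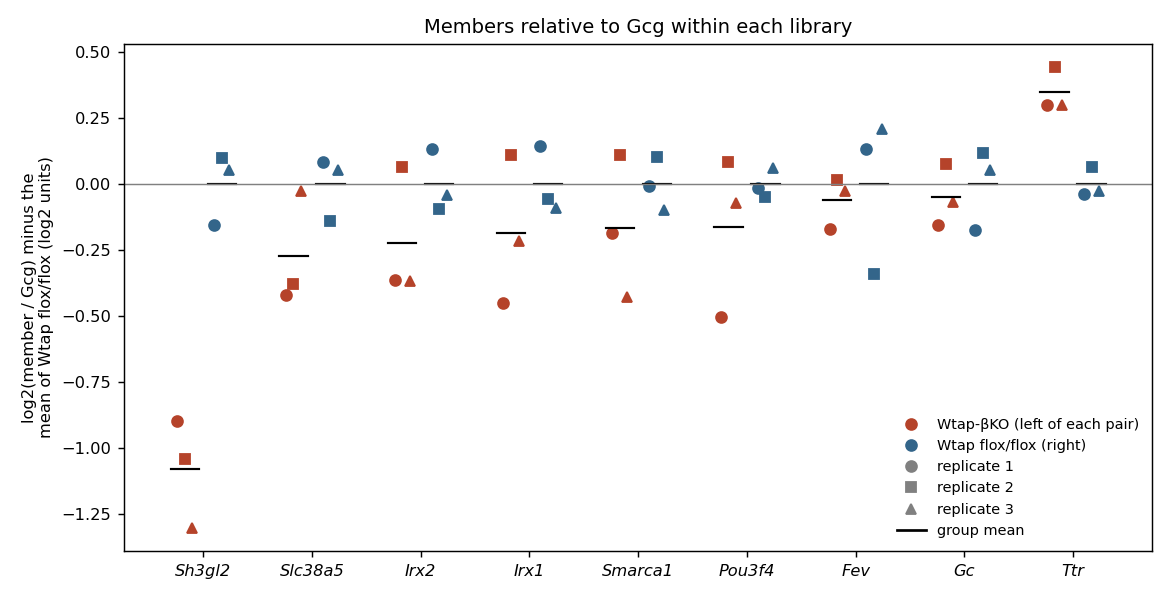
Level of each tested gene relative to Gcg in each library, as log2 difference from the Wtap flox/flox mean, with the libraries labelled Wtap-βKO left of Wtap flox/flox for each gene. Ttr stands above and Sh3gl2 below, and the other 7 overlap between the groups.

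Markers of the other islet cells were measured in the same libraries. Of 10 β-cell markers 8 were called lower and none higher, with a summed level of 81580 to 92206 FPKM in the libraries labelled Wtap-βKO and 134489 to 154702 FPKM in Wtap flox/flox. The 2 not called hold most of that sum, so it is not a measure of the 8 alone. Their log2 differences were -0.65 and -0.03 (adjusted p = 0.190 and 0.890). Slc2a2, the glucose transporter, fell to 33.5 ± 2.5 FPKM in the libraries labelled Wtap-βKO, against 179 ± 17.03 FPKM in Wtap flox/flox (SD, n = 3 each; adjusted p = 8.06e-05). Of 6 δ-cell markers 5 were called higher, the Rbp4 described above among them. The least stable of these calls held in 14 of 19 and in 11 of 18 alternatives. Their list summed to 5646 to 8321 FPKM in the libraries labelled Wtap-βKO and 3965 to 4337 FPKM in Wtap flox/flox. Nearly all of that sum came from the most abundant marker. Markers of PP and ε cells summed to 12828 to 26409 FPKM in the libraries labelled Wtap-βKO and 11538 to 13172 FPKM in Wtap flox/flox. The high end was replicate 2 of Wtap-βKO alone, and the other libraries labelled Wtap-βKO, at 12893 and 12828 FPKM, lay within the Wtap flox/flox range. Arg1 alone of the 4 was called, higher and in 11 of 19 alternatives. No β-, δ- or PP-cell marker listed was at 0 in all libraries. The part of these markers in the values of the 10 genes was not tested.

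Markers of cells from outside the endocrine islet were called in part. Of 5 acinar, 4 duct and 5 endothelial markers tested, Ctrb1, Spp1 and Eng were called higher, 1 in each list. Spp1 held its call in all 19 alternatives, and Ctrb1 and Eng in 11 of 19 each. Of 5 stromal markers Col1a1, Col3a1 and Rgs5 were called higher, Rgs5 in 13 of 19 alternatives. Among 5 immune markers tested Lyz2 and Igkc were called higher and Cd79a lower, with sums of 57.3 to 65.9 FPKM in the libraries labelled Wtap-βKO and 19.3 to 22.7 FPKM in Wtap flox/flox. Igkc, an immunoglobulin light chain, carried that difference: the other 5 immune markers summed to 15.4 to 16.4 FPKM in the libraries labelled Wtap-βKO and 15.7 to 18.1 FPKM in Wtap flox/flox. The acinar list summed to 149 to 212 FPKM in the libraries labelled Wtap-βKO and 86.9 to 150.0 FPKM in Wtap flox/flox, and the stromal list to 63.8 to 71.4 FPKM in the libraries labelled Wtap-βKO and 45.3 to 53.6 FPKM in Wtap flox/flox. Of 8 neuronal and glial markers tested Snap25 and Elavl4 were called lower, in 9 and 12 of 19 alternatives.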

How the data were processed

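RNA was sequenced from 6 islet libraries, 3 labelled Wtap-βKO and 3 labelled Wtap flox/flox. The table deposited by the authors gives FPKM per gene. The submitters' processing notes name CASAVA, HISAT2 2.0.5, featureCounts 1.5.0-p3, DESeq2 1.20.0 and the builds GRCm38 and mm10, with no role or order. Per the labels' protocols, mRNA was captured by poly-T beads and read as pairs of 150 bases.

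Here FPKM were transformed as log2(FPKM + 1), filtered at a mean of 0.5 FPKM and tested with limma 3.58.1 (R 4.3.3) with a variance trend and Benjamini-Hochberg adjustment over 15927 genes. FPKM times length gave whole reads for 100% of values within 0.01 read, and these give the depths of 16353297 to 18682745 reads. Library replicates differed beyond counting noise, at a chi-square per degree of freedom of 5.38 to 18.1, so none was counted as a duplicate. The pairs with replicate 2 of Wtap-βKO stood at 18.1 and 17.2, and all other pairs at 5.38 to 6.61. The p-values measure the spread between pooled libraries of 3 mice. Same-numbered libraries had correlations of deviations from the group means of 0.0185 to 0.0377. Python 3.11.15, pandas 2.3.3, SciPy 1.17.1 and matplotlib 3.10.9 made the ratios and plots. The script was tested on simulated data.

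The 10 genes and the 20 other lists were chosen with earlier results of these data known. Named genes were all 10 genes described, Wtap and Gcg, and in each list the called genes, at most 4 by adjusted p with a mean of at least 1 FPKM, besides the sex-linked genes and the genes that overlap or adjoin one of the 10. Rfx6, St18, Pcsk2, Apoa1, Smarca5, Irx3, Irx4, Irx6, Pou3f2, Pou3f3, Alb and Rpl9-ps4 were named outside that rule, after their values were seen. So were Slc18a2 and all tested endocrine-fate factors that were not called, Neurog3, Isl1 and Insm1 among them. Some genes of the fixed naming rule, and the ratios that used them, are not reported here.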

Additional observations from a re-analysis of the deposited data

How the results depend on the processing

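Ttr, Gc and Smarca1 kept their call and direction in all 19 alternatives run, and no log2 difference of the 9 tested genes or of the named α-cell genes changed sign. Of 264 gene results under alternatives, 223 kept their side of the threshold, 24 passed it newly and 17 lost it. Of the 9, 3 to 6 were called higher. The count called lower, 0, became 1 (Sh3gl2) under quantile normalization, limma voom and protein-coding genes alone, and ranged from 0 to 1 with a replicate left out. Of 119 other list genes tested, 22 were called higher, against 36 after scaling to total recovered reads, 13 with no filter on low values, and 10 to 18 with a replicate left out, while 31 were called lower, against 23 after scaling to total recovered reads. Of the 10 other α-cell genes 2 were called higher, against 4 after scaling to total recovered reads or with limma voom, 1 with no filter on low values, and 1 to 2 with a replicate left out. With a replicate left out, the ratio to Gcg ranged from -0.287 to 0.00617 for Pou3f4, from -0.136 to 0.0116 for Gc and from -0.229 to 0.0454 for Fev, and without a sign change from -0.332 to -0.0528 for Irx1, from -0.365 to -0.149 for Irx2, from -0.397 to -0.201 for Slc38a5 and from -0.304 to -0.0353 for Smarca1. The causes were not tested.

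With the replicate number as a block, 3 of the 9 genes were called higher (against 4), Irx2 being lost (adjusted p = 0.0999), and 1148 genes were called higher and 1490 lower across all genes, with 1 of the other α-cell genes called higher under the block. The numbers do not pair the libraries by the rule used, as every same-number correlation was under 0.1, although all 6 libraries were closest to their own number, a hint from the data and not from the design. The edgeR and DESeq2 fits planned were not run, because the deposited values are FPKM; limma voom on recovered reads called 6 of the 9 genes higher and 1 lower. The planned ratios to denominators other than Gcg are not reported here. Low-count genes such as Tmem236 are limited by depth.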

Other observations

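The short m6A core GGACT was counted in the longest coding transcript of each gene in GENCODE M21, since WTAP belongs to the m6A writer. Its density was 1.67 per kb in Gc and 1.24 per kb in Sh3gl2, and 0 in Fev, beside a median of 1.05 per kb over 12692 tested genes (quartiles 0.643 to 1.52). The other 7 genes lay between 0.547 and 1.01 per kb, and m6A itself was not measured.

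Irx1 and Irx2 are separated by 665097 bases with 6 annotated genes between them, of which 2 were tested. Gm20554, a long noncoding RNA gene 256 bases from the start of Irx2, had 6.47 ± 0.959 FPKM in the libraries labelled Wtap-βKO and 5.54 ± 0.842 FPKM in Wtap flox/flox (SD, n = 3 each) and was not called (log2 difference 0.19, adjusted p = 0.328). Rpl9-ps4, a ribosomal protein pseudogene, had 21.9 ± 3.13 FPKM in the libraries labelled Wtap-βKO and 15.8 ± 2.77 FPKM in Wtap flox/flox, also not called (adjusted p = 0.0731). Cryba2, the neighbour of Fev, had 35.1 ± 1.49 FPKM in the libraries labelled Wtap-βKO and 32.1 ± 1.09 FPKM in Wtap flox/flox (adjusted p = 0.164).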
